A study of Mus musculus with 2 samples.

Results

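Mir126a and Mir126b are microRNA genes on opposite strands of 1 stretch of mouse chromosome 2, within the gene Egfl7. They were taken by their GENCODE M21 symbols from the deposited tables and are 2 of the 2202 microRNA genes counted there. Both have a row in each library, with 3 count columns (reads on the sense strand, on the antisense strand and on either strand). The libraries were made from total RNA of heart tissue of female B6CASTF1/J mice aged 18 to 20 months, the first-generation hybrid of C57BL/6J and CAST/EiJ. There was 1 group of 2 libraries, with no other strain, age or treatment to set them against. The labels number them as biological replicates 1 and 2 and give each its own tissue record, but both point to the same donor record. Nothing states that they came from separate animals, so an SD here measures only the spread between these libraries, which may be technical.

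A microRNA is cut from a hairpin in a longer transcript, and one strand of the resulting duplex guides the silencing of messenger RNAs that match its seed, the bases near its 5′ end. MiR-126 is the best known microRNA of endothelial cells, the cells that line blood vessels, and it is also found in platelets and blood-forming cells. Its host gene Egfl7 encodes a secreted protein of endothelial cells. In mice and zebrafish the 3′ arm is known to keep vessels intact by lowering Spred1 and Pik3r2, inhibitors of signalling downstream of vascular endothelial growth factor, and mice without it have leaky vessels. Mir126b is annotated on the opposite strand of the same hairpin, and no role of it is described here.

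Mir126a (ENSMUSG00000065540.1) lies at chr2:26591357-26591429 of mm10 on the plus strand, and Mir126b (ENSMUSG00000105799.1) at chr2:26591363-26591420 on the minus strand. Egfl7 runs along the plus strand from 26580014 to 26593120. Of its 19 annotated transcripts, 9 contain the Mir126a hairpin. It is intronic in 8 of them, 7 of which are protein-coding, and falls in intron 7 of Egfl7-201 and Egfl7-202. In the other, the retained-intron transcript Egfl7-206, it lies in exon 4. The hairpins below are shown because their overlap sets how reads were counted. They are those of RefSeq for GRCm38.p6, the assembly of mm10, equal to the GENCODE M21 transcripts in sequence and position, with the annotated mature microRNAs in capitals. Both genes were matched.
Mir126a hairpin (plus strand): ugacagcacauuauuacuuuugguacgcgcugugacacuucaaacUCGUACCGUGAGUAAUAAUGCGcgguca
Mir126b hairpin (minus strand): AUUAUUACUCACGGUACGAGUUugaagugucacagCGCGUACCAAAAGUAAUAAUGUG

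The Mir126b hairpin, at 58 nt, is the complement of part of the 73-nt Mir126a hairpin with 0 mismatches, leaving 6 nt of Mir126a free on one side and 9 nt on the other. The mature sequences are shown with the seed (bases 2 to 8) in capitals, because the seed decides which messenger RNAs a microRNA can pair with.
miR-126a-3p (plus strand): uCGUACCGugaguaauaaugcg
miR-126b-3p (minus strand): cGCGUACCaaaaguaauaaugug
miR-126b-5p (minus strand): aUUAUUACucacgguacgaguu

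The 5′ arm of Mir126a gives miR-126a-5p, which was not compared here. No 2 of the 3 sequences shown share a seed, and none of the other microRNAs among the 1738 mature entries of the RefSeq table has any of the 3 seeds. MiR-126a-3p and miR-126b-3p come close: their seeds hold the same 6 bases, starting at base 2 in miR-126a-3p and at base 3 in miR-126b-3p. Further on they share a run of 10 bases (AGUAAUAAUG), so the strands of the locus give similar 3′ arms. MiR-126a-3p lies opposite miR-126b-5p over 19 nt, and its last 3 nt pass the end of Mir126b. Set without gaps on the Mir126b hairpin, miR-126a-3p has at best 5 mismatches, as do both Mir126b microRNAs on the Mir126a hairpin. Apart from each other, Mir126a and Mir126b share no stretch of 20 nt with another annotated microRNA locus, whereas 73 of the 316 detected genes do (10 counts or more in each library). Folded alone with RNAfold, the Mir126a hairpin forms 27 base pairs at a predicted -31.2 kcal/mol and the Mir126b hairpin 21 at -19.3 kcal/mol.

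**Figure D1:**
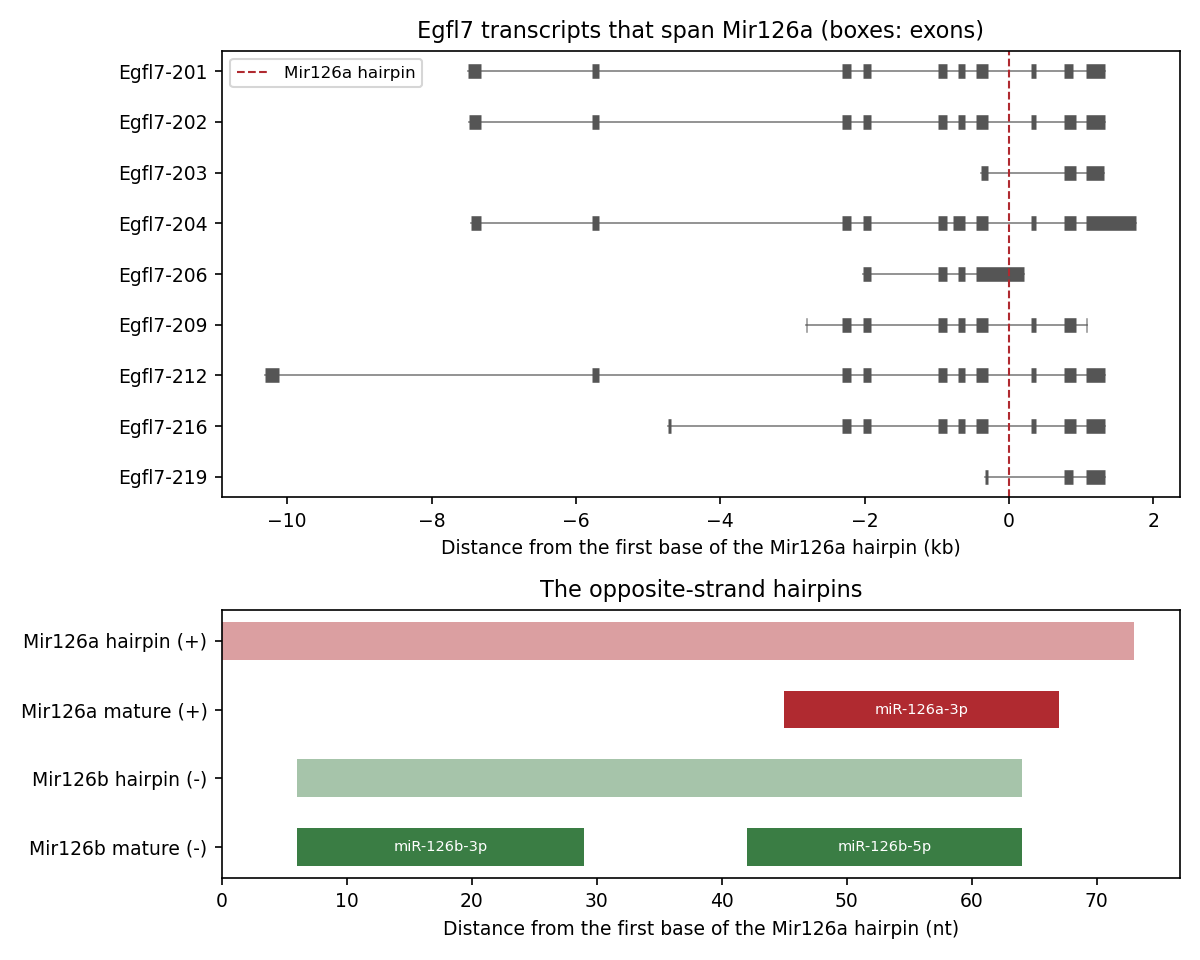
Position of the Mir126 hairpins. Top: exons (boxes) and introns (lines) of the 9 Egfl7 transcripts that contain Mir126a, by distance in kb from the first base of its hairpin, which is intronic except in Egfl7-206. Bottom: hairpins and annotated mature microRNAs by distance in nt, with 58 nt of Mir126b inside the 73 nt of Mir126a.

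Replicate 1 held 9362013 reads, of which 3383676 (36.1%) were sense reads of microRNA genes, and replicate 2 held 10549508, of which 3676084 (34.8%) did. Reads that mapped to more than 1 place took 43.9% and 43.2% and entered no gene count. Levels are counts per 1000000 sense gene counts of a library (CPM), on which 3 counts make 0.887 CPM in replicate 1 and 0.816 CPM in replicate 2. Intervals cover counting error only, because the reads carry no molecular identifiers and PCR copies of 1 molecule may be counted several times. The heart muscle genes Mir499 (3977 and 3567 CPM) and Mir208a (1588 and 1247 CPM), which lie in myosin genes, were present in both libraries, as markers of the labelled tissue.

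Among reads mapped to 1 place, Mir126a was one of the highest microRNA genes of the aged heart, and Mir126b was close to absent. Mir126a had 436640 sense reads in replicate 1 and 212163 in replicate 2, which are 129043 CPM (Wilson 95% interval 128686 to 129401) and 57714 CPM (interval 57476.5 to 57953). It made up 12.9% of the sense gene counts of replicate 1 and 5.77% of those of replicate 2, and 4.66% and 2.01% of all reads. Its mean of 93379 ± 50437 CPM (SD, n = 2) was the second highest of all genes by reads that mapped to 1 place. The libraries held 1.22 and 1.24 multimapping reads for each sense read of a gene, and a microRNA with several loci could stand higher if these were counted. Replicate 1 was high and replicate 2 low, far beyond their counting intervals. In bulk tissue, fewer endothelial cells, less RNA per cell and a technical difference between the libraries cannot be told apart. A count per hairpin does not separate the 5′ and 3′ arms.

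Mir126b had 4 sense reads in replicate 1 and 1 in replicate 2. These are 1.18 CPM (exact Poisson 95% interval 0.322 to 3.03) and 0.272 CPM (0.00689 to 1.52), with a mean of 0.727 ± 0.644 CPM (SD, n = 2). At this depth its level could not be told apart between the libraries, and it did not reach the 10 counts in each library asked of a tested gene. Over both libraries together, Mir126a had 129761 times the reads of Mir126b (exact 95% interval 55604 to 399637). Of the sense reads of both genes, Mir126b held a share of 0.000916% (Wilson 95% interval 0.000356 to 0.00236) in replicate 1, while its share was 0.000471% (8.32e-05 to 0.00267) in replicate 2.

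Reads that map antisense to genes without an opposite partner give a level to set this against. Over the 2138 such genes, antisense reads were 99 of replicate 1 and 142 of replicate 2, or 0.00403% (0.00331 to 0.00490) and 0.00503% (0.00427 to 0.00593) of their reads on both strands. The Mir126b shares lay below these, and their intervals did not overlap them. The antisense reads are gathered on few genes, however: Mir122, chosen after its values were seen, had 52 of them in each library, against 81 and 63 sense reads. Of the 15 unpaired genes at 10000 CPM or more, 14 had 0 antisense reads in both libraries, which allows up to 0.887 and 0.816 CPM each, and Mirlet7b had 7 and 9 beside 205471 and 276438 sense reads. The Mir126b counts of 4 and 1 lie between those of Mirlet7b and those of the other 14 genes, and they cannot show whether Mir126b is made.

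The strand columns of the genes mirror each other. Mir126a had 4 and 1 reads in the antisense column, the sense counts of Mir126b, and Mir126b had 436630 and 212153 antisense reads, the sense counts of Mir126a less 10 in each library. In the antisense column Mir126b would rank first in replicate 1, with 47.2% of that column, and second in replicate 2, with 24.9%. In the column for reads on either strand, Mir126a had 10 reads in each library (4.07 and 3.54 CPM of that column) and Mir126b had 0. Mir126b lies wholly within Mir126a, so a read on it overlaps both genes, and its 0 in that column sets no limit on its level. Mir126a thus ranked first and seventh by sense reads but 305 and 310 of the 2202 genes by reads on either strand. The 10 reads left to Mir126a equal the number by which its sense count exceeds the antisense count of Mir126b.

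**Figure D2:**
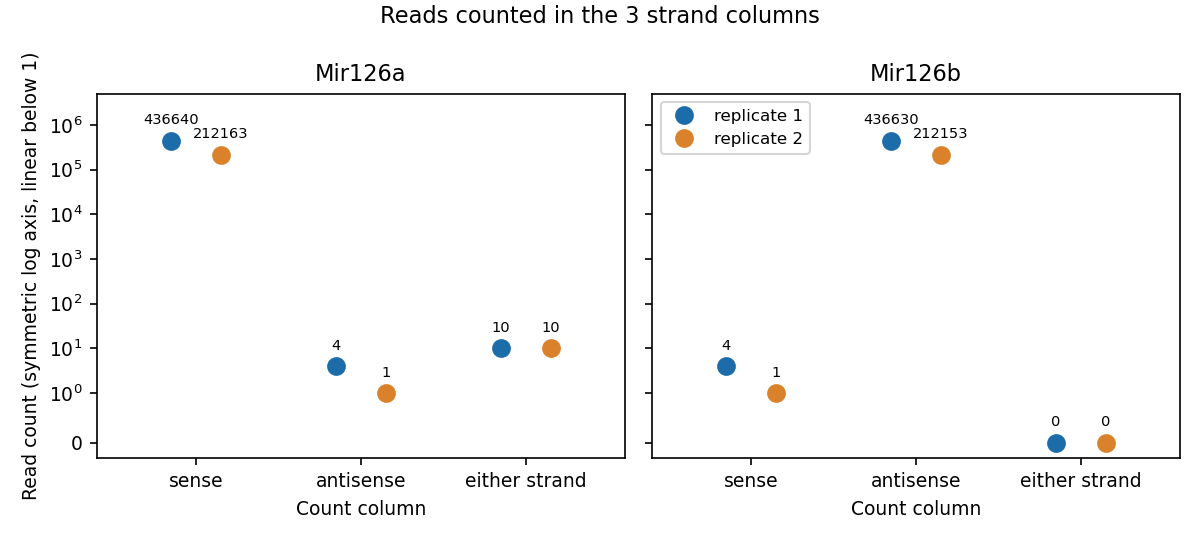
Read counts of Mir126a and Mir126b in the sense, antisense and either-strand columns of both libraries (symmetric log axis, linear below 1; each point 1 library). The sense counts of Mir126a recur in the antisense column of Mir126b less 10 reads, and the either-strand column holds 10 reads of Mir126a and 0 of Mir126b in each library.

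The reads missing from the either-strand column stand in its row for ambiguous reads, which held 925685 reads in replicate 1 and 852067 in replicate 2, against 0 in both libraries in the sense and antisense columns. In the annotation, 32 pairs of microRNA genes overlap on opposite strands. The sense reads of these 64 genes that were absent from the either-strand column summed to 925685 in replicate 1 and 852067 in replicate 2, the ambiguous row to the read. The Mir126 pair supplied 436634 and 212154 of them, or 47.2% and 24.9%. Mir378a, a microRNA gene in an intron of Ppargc1b, and its partner Gm25301 supplied 41.8% and 60.8%. Next came Mir191 with Gm24083 (3.80% and 5.43%), Mir30e with Mir30f (2.89% and 3.86%) and Mirlet7e with Gm25927 (2.32% and 3.10%).

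One strand dominated at most of these pairs. In 21 of the 32, the higher partner had 10 or more sense reads in each library. The lower partner then had 0 sense reads in both libraries in 13 pairs and 10 or more in each in 2 pairs, while 6 pairs, that of Mir126 among them, lay between. The Mir486 partner Mir3107 had 3.85% and 7.62% of its pair's sense reads, and the Mir24-1 partner Mir3074-1 had 14.3% and 15.0%. Mir126a was the only higher partner of the 21 with any read in the either-strand column, while the other 20 had 0 in both libraries. No test of these differences was made.

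**Figure D3:**
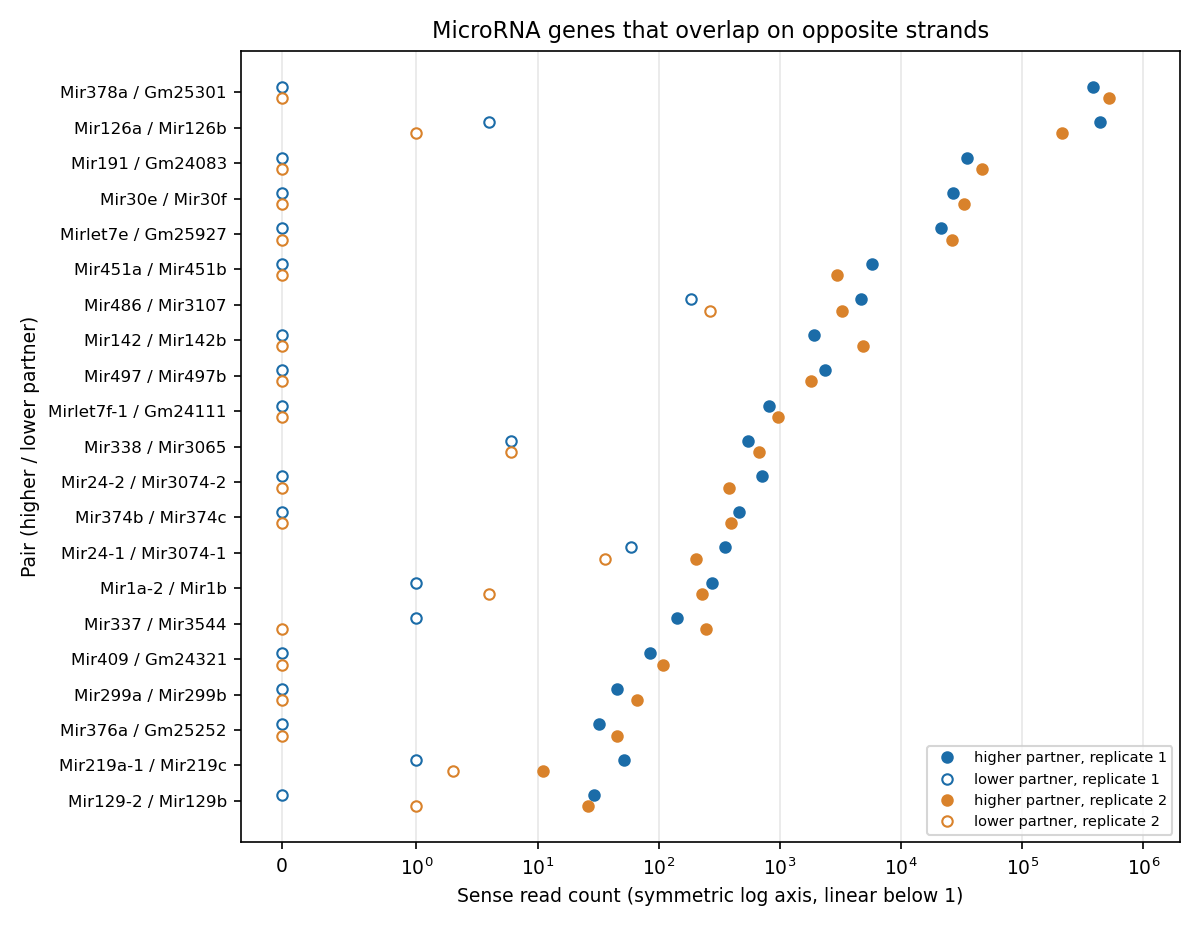
Sense reads of the higher (filled) and lower (open) partner in the 21 pairs of microRNA genes that overlap on opposite strands and whose higher partner had 10 or more reads in each library (symmetric log axis, linear below 1). The Mir126 pair combines one of the 2 highest genes with a partner at 4 and 1 reads.

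Mir126a was higher in replicate 1. Scaled by TMM (trimmed mean of M-values), its level there was 2.44 times that in replicate 2 (exact 95% interval 2.42 to 2.45), a log2 ratio of 1.28. A two-sided exact binomial test on the sense counts, adjusted by Benjamini-Hochberg over the 316 genes tested, called it higher in replicate 1 (adjusted p below 1e-300). Of the 316 genes, 191 were called (60.4%), with 86 (27.2%) higher in replicate 1 and 105 (33.2%) higher in replicate 2, so a call says little about a single gene at this depth. The test sets these libraries against counting noise and compares no conditions. The median log2 ratio of all 316 genes was -0.05, against -0.18 with library totals and 0 with DESeq2 size factors. Mir126a lay 1.34 above that median, a distance that no scaling can change because scaling shifts all genes alike. Among the 66 genes with a mean of 1000 CPM or more, 9 others had a log2 ratio at least as far from 0, with 5 above 0 and 4 below.

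The level of Mir126a changed its rank. In replicate 1 it stood first, above Mir378a (114415 CPM, Wilson 95% interval 114076 to 114755). In replicate 2 it stood seventh, below Mir378a (140849 CPM), Mirlet7b (75199), Mir23b (73993), Mirlet7i (69311), Mir23a (68701) and Mirlet7g (62573 CPM, 62326 to 62821) and above Mir143 (43744 CPM, 43536 to 43954). These neighbours differ from Mir126a beyond counting error within each library. Over both libraries, its SD of 50437 CPM exceeds the distance of its mean from that of Mir378a (127632 CPM) and from those of the 5 genes next below it, down to Mirlet7g (60182 CPM), so the order among them is not resolved. Mir126a also weighs on the scale of other genes: on library totals, the median log2 ratio of the other 315 detected genes was -0.18, and -0.07 with Mir126a left out of both totals.

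**Figure D4:**
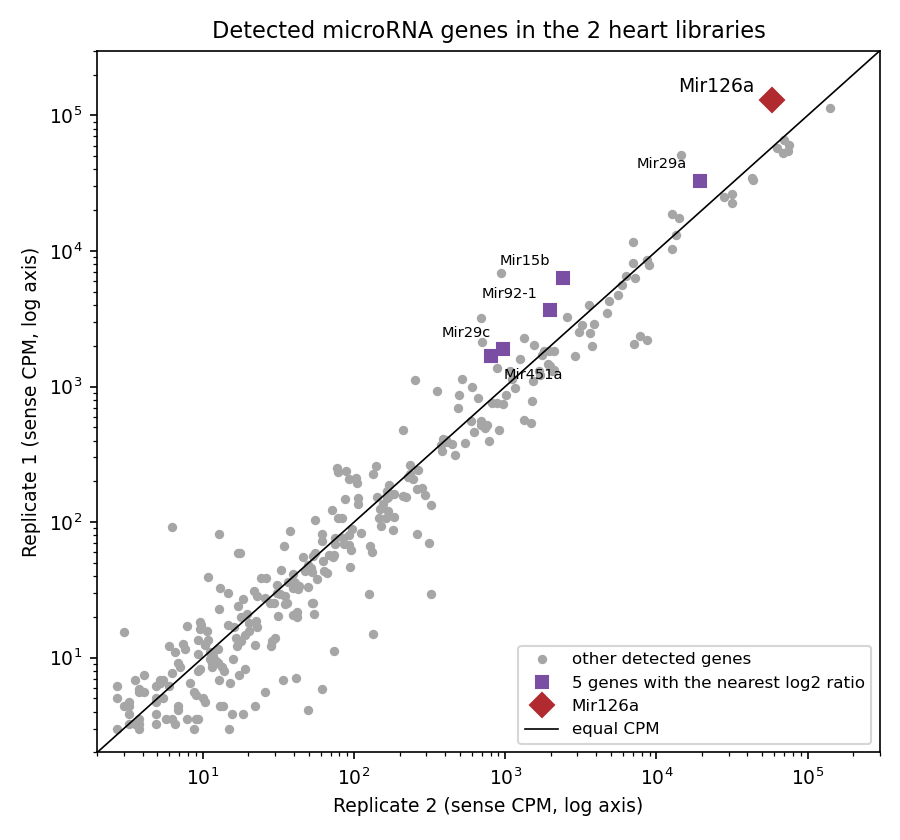
Sense CPM of the 316 detected genes in replicate 1 (vertical) and replicate 2 (horizontal), both on log axes, with the line of equal CPM. Mir126a, at 129043 and 57714 CPM, lies above the line, as do the 5 genes with the nearest log2 ratios.

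The genes with a mean of 1000 CPM or more whose log2 ratio lay nearest to that of Mir126a were Mir451a (1.20), a microRNA gene of red cells, Mir29c (1.09), Mir15b (1.52), Mir92-1 (1.01) and Mir29a (0.90). Likeness here is the absolute difference between log2 ratios of replicate 1 over replicate 2, which was 0.09 for Mir451a and 0.38 for Mir29a, and it rests on 2 libraries. Mir29c and Mir92-1 share 20 nt or more with another locus, so their counts are uncertain. Mir451a had 5723 and 2951 sense reads, so its ratio to Mir126a hardly moved. Mir144, another gene of red cells, had 3786 and 937 sense reads (log2 ratio 2.26). The red cell genes thus did not all move as Mir126a did.

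Set against genes known from muscle, blood cells, fibroblasts and the vessel wall, Mir126a had more reads than each of the 9 compared, and each ratio was higher in replicate 1. Mir126a stood at ranks 1 and 7 of all genes by sense reads. Few genes with a mean of 1000 CPM or more had a higher log2 ratio. Most genes would therefore give such ratios, and the pattern is not particular to these 9. Nor does it hold for every gene known from the same cells. Mir214 (fibroblast, log2 ratio 2.33), Mir144 (red cell, 2.26) and Mir208b (striated muscle, 1.91) had higher log2 ratios than Mir126a. Against these genes the ratio would be higher in replicate 2. The ratio of Mir126a to Mir499 was 32.4 in replicate 1 (exact 95% interval 31.9 to 33.0) and 16.2 (15.9 to 16.5) in replicate 2. Its ratio to Mir208a, the other heart muscle gene of the 9, was 81.3 (79.1 to 83.5) and 46.3 (44.9 to 47.7). Both muscle genes were themselves called higher in replicate 1 (log2 ratios 0.28 and 0.47). Against Mir143, a gene of smooth muscle around vessels, the ratio was only 3.84 (3.82 to 3.87) and 1.32 (1.31 to 1.33).

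Blood cell genes parted. The ratio of Mir126a to Mir451a was 76.3 in replicate 1 (74.3 to 78.3) and 71.9 in replicate 2 (69.3 to 74.6). These intervals overlap at their ends, which does not show that the ratios are equal, and their difference was not tested. The ratio to Mir150, known from lymphocytes, was 55.0 (53.8 to 56.3) and 7.46 (7.37 to 7.55), and that to Mir223, known from myeloid cells, was 970 (885 to 1067) and 179 (169 to 190). These were the widest shifts of the 9, at 7.38-fold for Mir150 and 5.42-fold for Mir223, since both genes were called higher in replicate 2 (log2 ratios -1.60 and -1.15). The ratio to Mir21a, a fibroblast gene, was 64.5 (62.9 to 66.0) and 15.4 (15.1 to 15.6). Mir21a was called higher in replicate 2 (log2 ratio -0.78). Mir214, another fibroblast gene outside these 9, was called higher in replicate 1 (log2 ratio 2.33).

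The pair Mir221 and Mir222, known from the cells of the vessel wall, the endothelium included, did not follow Mir126a. Mir221 had 1677 and 2894 CPM and Mir222 had 93.1 and 152 CPM, and both were called higher in replicate 2 (log2 ratios -0.66 and -0.58; exact binomial test, adjusted p = 7.2e-178 and 1.9e-08). Mir126a had 77.0 times the reads of Mir221 in replicate 1 (75.0 to 79.0) and 19.9 times in replicate 2 (19.6 to 20.3). The ratios to Mir222 were 1386 (1241 to 1553) and 380.2 (350 to 414). As all 9 ratios share Mir126a, they are not independent.

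**Figure D5:**
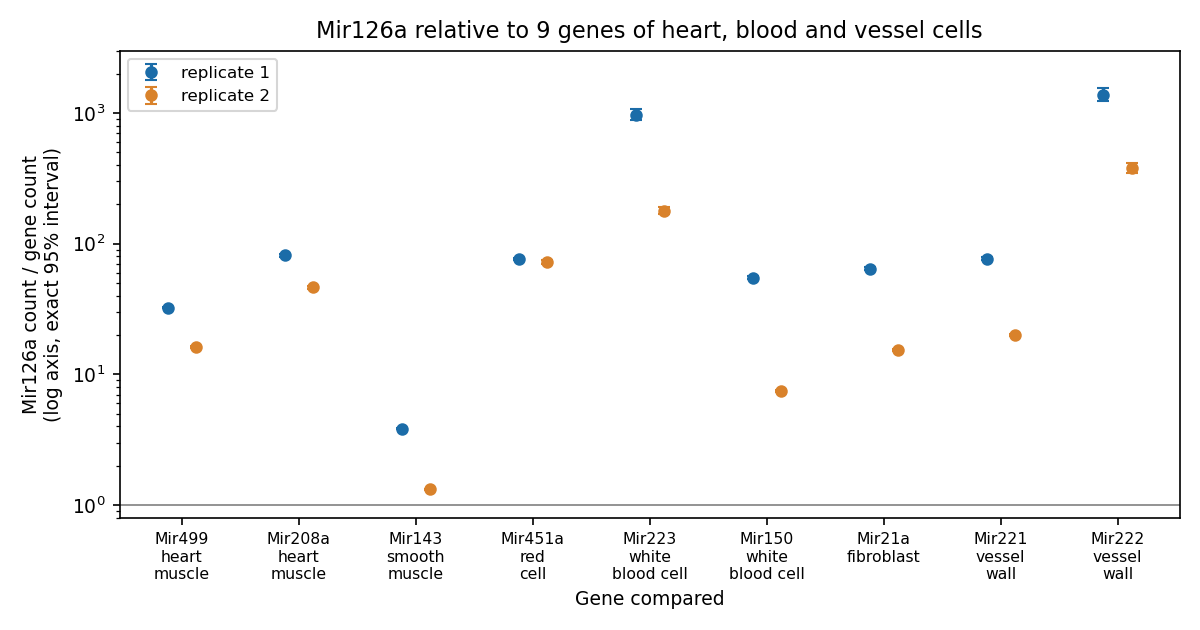
Sense reads of Mir126a divided by those of 9 genes known from muscle, blood cells, fibroblasts and the vessel wall, in replicate 1 (blue) and replicate 2 (orange), on a log axis with exact 95% intervals. Each ratio is above 1 and higher in replicate 1, with the smallest shift for Mir451a and the widest for Mir150.

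The marker lists are read beside all 316 tested genes, of which 27.2% were called higher in replicate 1 and 33.2% in replicate 2, or 60.4% in all. Multimapping reads lower the genes that share a stretch with another locus, so that the share of a list with such genes is no measure of its microRNAs. Of 22 genes of the vessel wall and angiogenesis, 20 were tested, of which 7 were called higher in replicate 1, 9 in replicate 2 and 4 in neither, near the shares over all genes, with a median log2 ratio of -0.03 (-0.05 over all genes) that turns to 0.02 with DESeq2 size factors. The calls were then 8 and 8, and with library totals 5 and 11. They took 12.9% of the sense gene counts of replicate 1 and 16.6% of replicate 2, and 10 of the 22 share a stretch with another locus. Mir92-1 (1.01) and Mir27b (0.20) were called higher in replicate 1, and Mir23b (-0.32) and Mir23a (-0.24) in replicate 2.

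Erythroid genes took 0.424% of replicate 1 and 0.201% of replicate 2, and 3 of 4 were called higher in replicate 1 (27.2% over all genes; median 0.98), while Mir3107 was called, as higher in replicate 2, only with library totals. Striated muscle genes took 0.573% and 0.492%, but 5 of the 9 share a stretch with another locus. Of the 6 tested, 4 were called higher in replicate 1 (27.2% over all genes) and 2 in neither (median 0.38). White blood cell genes took 0.864% and 1.64%, and 5 of 5 were called higher in replicate 2 (33.2% over all genes; median -1.09), though DESeq2 size factors leave Mir155 uncalled. The smooth muscle genes took 3.56% and 5.08%, and both tested genes, Mir143 and Mir145a, were called higher in replicate 2 (33.2% over all genes; median -0.96). Fibroblast genes took 0.523% and 0.447%, and 3 of the 5 share a stretch with another locus. Of the 4 tested, 1 was called each way and 2 in neither (60.4% called over all genes; median -0.30), of which Mir199b was called higher in replicate 2 with library totals. Only Mir199a-1 among the list genes had 0 reads in both libraries. The part of these cells, of RNA quality or of library preparation in the difference of Mir126a between the libraries was not tested.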

How the data were processed

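MicroRNA-seq libraries from heart tissue were analysed, 2 in 1 group. The deposited tables hold raw counts for each microRNA gene in 3 columns without headers (either strand, sense, antisense), and the values show that the columns with their 4 rows that name no gene sum to the same total. Per the deposited readme texts, reads were placed on mm10 with annotation M21 of GENCODE. Which aligner and counter were used is not given in the sources used here. The 4 rows stayed out of library sizes and tests. In the sense column, unmapped, multimapping, featureless and ambiguous reads took 14.9%, 43.9%, 5.07% and 0% of replicate 1 and 16.2%, 43.2%, 5.75% and 0% of replicate 2. CAST/EiJ variants may lower counts on mm10, which was not tested.

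CPM used sense gene counts. TMM factors came from edgeR 4.0.16 and alternative size factors from DESeq2 1.42.0 (R 4.3.3). Genes with 10 counts or more in each library entered the exact binomial test (scipy 1.17.1). It was checked on simulated Poisson counts, which carry counting noise only, as the test assumes. That check gives no error rate for these libraries. RNAfold 2.7.2 folded the hairpins. The named genes are the 2 members, the 9 genes of the fixed ratios, up to 4 members of each of 7 marker lists, rank neighbours of Mir126a, up to 5 opposite-strand pairs and the 5 genes nearest in log2 ratio. Mir122, Mirlet7b, Mir3107, Mir3074-1, Mir214, Mir144 and Mir208b are examples picked with their values in view. The members and lists were chosen with earlier results of these data known.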

Additional observations from a re-analysis of the deposited data

How the results depend on the processing

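The level of Mir126a depends on what it is divided by: it was 33375 ± 18758 per 1000000 of all reads and 220560 ± 95280.4 per 1000000 sense gene counts without the 10 highest other genes, against 93379 ± 50437 CPM (SD, n = 2 each). Its log2 ratio between the libraries was 1.34 with DESeq2 size factors, 1.16 with library totals and 1.28 with the deeper library thinned, and the call held in each. Calls among all genes numbered 187 with DESeq2 size factors, 198 with library totals, 189 after thinning, 201 of 708 genes with 1 count in either library and 153 of 214 with 50 counts in each, against 191. Opposite-strand pairs fell to 16 at 100 counts. Leaving out a library gives the other library's value, with no test; Mir126a over Mir126b was then 109160 or 212163, the second on 1 read of Mir126b. That ratio has no value in the either-strand column, where Mir126b is at 0. No paired analysis was possible because there is 1 group. Mir126b is limited by depth, with 5 reads in all.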
